A study of Mus musculus with 4 samples.

Results

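The proteasome genes described here are the 49 protein-coding genes of the count table whose symbols begin with Psma to Psmg followed by a number, out of 14934 genes in the table and 13118 marked protein-coding. They were chosen by symbol alone and fall into 7 alpha subunits of the 20S core particle (Psma), 10 beta subunits of the core (Psmb), 21 genes of the 19S regulatory particle (Psmc and Psmd), 6 genes of the PA28 family (Psme), the inhibitor Psmf1 and 4 assembly chaperones (Psmg). The symbol rule also took in genes that are not subunits, among them the assembly chaperones Psmd5, Psmd9 and Psmd10, counted here with the 19S particle. Psmc3ip encodes a cofactor of meiotic recombination, Psme3ip1 a protein that interacts with PA28 gamma, and Psme4 the separate activator PA200. With Psmc3ip and Psme3ip1 left out 47 genes remained, and their median fold change was the same.

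The study sequenced RNA of CD8 T cells that had infiltrated hepatocellular carcinoma in mice and had been sorted by flow cytometry on JAML, the junctional adhesion molecule-like receptor of the immunoglobulin superfamily. Both groups were of wild-type genotype and no treatment is labelled for either. There were 2 libraries of JAML-positive cells (replicates A and B) and 2 of JAML-negative cells (replicates A and B). The labels name neither the tumour model nor the age of the mice, and they do not say whether A and B came from separate animals or sorts, so p-values reflect nothing beyond the spread of these libraries, a spread that may be technical. Where a gene has a pair of values for a group, replicate A comes first.

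The proteasome degrades proteins that carry ubiquitin chains. Alpha subunits form the gate of the barrel-shaped core, beta subunits form the chamber in which proteins are cut, and the 19S particle binds, unfolds and feeds in the substrate. Interferon gamma induces the subunits Psmb8, Psmb9 and Psmb10, which take the places of the catalytic subunits Psmb5, Psmb6 and Psmb7 and give the immunoproteasome, a form that lymphoid cells also hold at rest and that makes peptides for MHC class I. The PA28 proteins Psme1 and Psme2 cap the core and are also induced by interferon gamma, whereas the transcription factor NRF1 (Nfe2l1) raises genes of the standard subunits when degradation falls short.

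RefSeq promoter sequences (GRCm38.p6, 250 bases before to 50 after the start) matched 42 of the 49 genes with 46 windows. The 3 stretches below are shown because they lie before the starts of catalytic subunits whose levels are compared in the following paragraphs, and because each holds a match to a motif of the 2 induction routes. Capitals mark the matched letters, and each sequence runs 5′ to 3′ along the strand of its gene. The antioxidant response element core TGACNNNGC, to which NRF1 and its relatives bind, is found 47 bases before the start of Psmb5 (chr14:54618009-54618067, minus strand) and 9 bases before that of Psmb6 (chr11:70525327-70525356, plus strand), where the start in the promoter table lies inside the RefSeq span of the gene. The gamma-activated site core TTCNNNGAA, a motif of interferon gamma responses, is found 97 bases before the start of Psmb8 (chr17:34198073-34198131, plus strand).
Psmb5: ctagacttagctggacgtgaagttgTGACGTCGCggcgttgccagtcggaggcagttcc
Psmb6: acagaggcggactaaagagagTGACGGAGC
Psmb8: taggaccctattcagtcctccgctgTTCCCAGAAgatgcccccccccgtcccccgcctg
The response element core was found on either strand in 13% of the proteasome windows and in 12.4% of all 32851 windows of the table. The gamma-activated core was found in 6.52% and 8.3%. The interferon-stimulated response element core GAAANNGAAA was found in 10.9% of the proteasome windows (Psmb3, Psmd4, Psmd9, Psme1 and Psmg4) and in 3.44% of all windows. A match describes letters in these windows and does not show that a factor binds there.

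The 4 libraries held 27530187 to 30569728 counts. JAML-positive replicate A differed from the rest in composition. Ribosomal protein genes made up 12.5% of its counts, where the other 3 libraries had 7.72% to 8.63%, and the nuclear RNA Malat1 0.0703%, where they had 0.12% to 0.146%. Values without this library are given beside many of the results, and the genes that changed sign without it are counted further on. Markers of T cells were abundant in every library, with Cd8a at 1024 to 1113 CPM (counts relative to the library total, scaled with TMM factors) and Cd3e at 378 to 443 CPM. Cd4 was present as well, at 124 and 120 CPM in the JAML-negative and 134 and 173 CPM in the JAML-positive pair (log2 fold change 0.33, SE 0.27). Of the 6 T cell markers 5 had a higher and 1 a lower fitted value in JAML-positive cells. Cd4 was among the 3 that were higher without overlap, against 20.3% of all tested genes. Transcripts of the sort marker, Jaml, had 3693 and 3214 counts in the JAML-negative pair and 3638 and 4592 in the JAML-positive one (log2 fold change 0.20, SE 0.26, edgeR adjusted p = 0.881), so the groups rest on their labels.

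Values of proteasome transcripts as a group were higher in JAML-positive cells, and no single member passed the test. The 49 genes took 0.441% and 0.435% of all counts in the JAML-negative pair, and 0.604% and 0.524% in the JAML-positive pair. The share was higher in either JAML-positive library than in either JAML-negative one. All 49 genes passed the filter on low counts. Of these, 43 had a higher and 6 a lower value in JAML-positive cells, whereas 50.7% of the 11563 tested genes were higher (49.2% of the genes with a mean of at least 30 CPM). The median log2 fold change was 0.44, which is 1.36-fold, beside 0.01 over all tested genes. With JAML-positive replicate A left out, it was 0.28 beside -0.02. With trends in transcript length and GC content removed by least squares the sign of the median turned to -0.04, beside -0.21 over all tested genes. In that fit 21 of 49 were higher, against 35.85% of all tested genes. The value lay above the all-gene median for 37 of the 49, against 43 in the reported fit. In bulk RNA, a lower level in each cell and fewer cells that express the gene cannot be told apart.

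For 24 of the 49 genes each JAML-positive value exceeded each JAML-negative value, against 20.3% of all tested genes. That share of 20.3% also stands beside the counts without overlap given below for each group of subunits. Among the 41 members with at least 30 CPM there were 23, against 19.5%. None of the 49 had both JAML-positive libraries below both JAML-negative libraries, an order found for 18.2% of all tested genes. With edgeR's quasi-likelihood test and Benjamini-Hochberg adjustment 0 members and 0% of all genes were called (smallest adjusted p among members 0.609). At an unadjusted p under 0.05 there were 5 members with higher values, Psmb6, Psma5, Psmd3, Psmd8 and Psme2, against 4.32% of all genes. There were 0 with lower values, against 3.34%. DESeq2 called 4 of them higher (Psmb6, adjusted p = 0.000234; Psme2, 0.00384; Psma5, 0.005; Psmd3, 0.00542), against 4.64% of all genes, and limma-voom called 0.

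**Figure D1:**
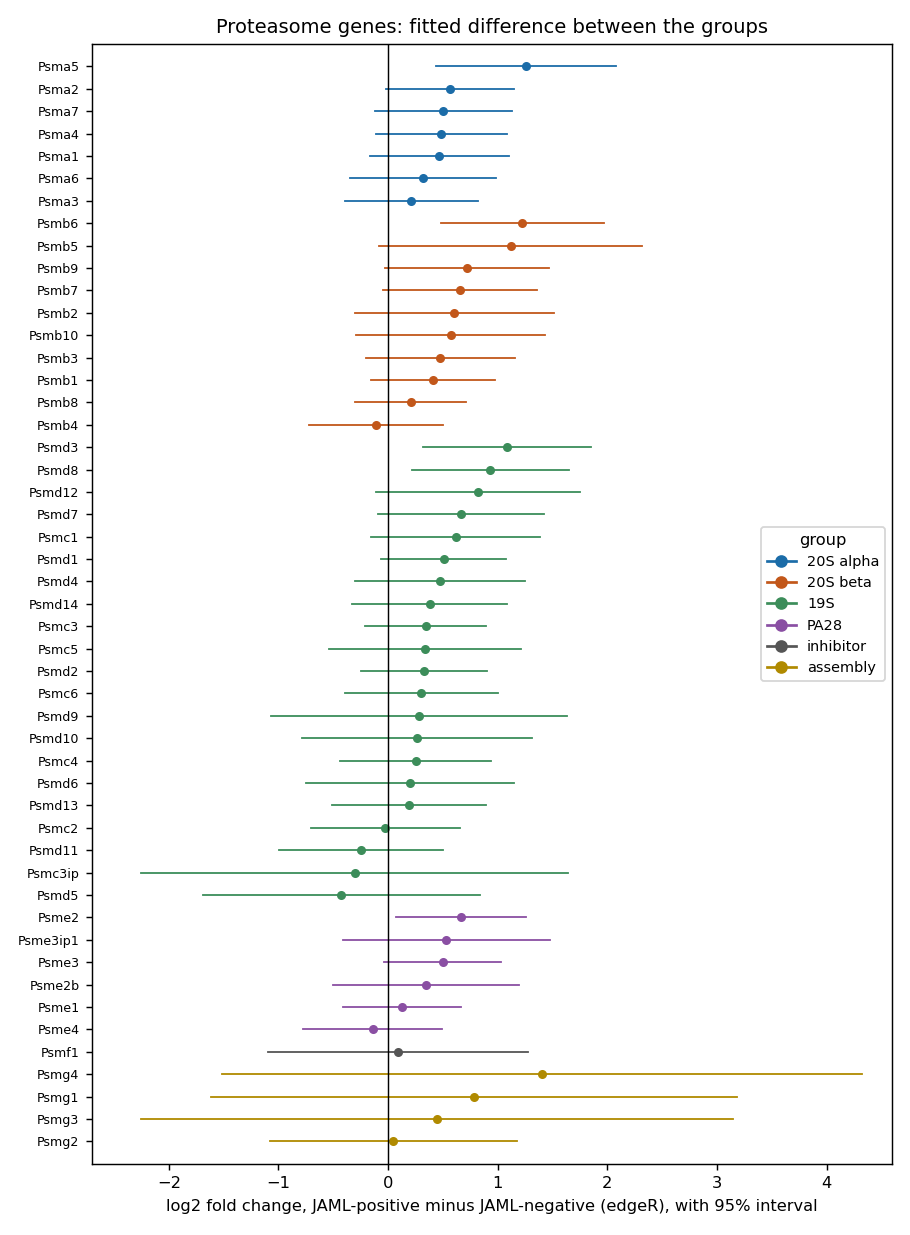
Fitted log2 fold change of each of the 49 proteasome genes (horizontal axis, JAML-positive minus JAML-negative, edgeR) with its 95% interval, coloured by group. 43 points lie right of 0, and the intervals of Psmb6, Psma5, Psmd3, Psmd8 and Psme2 do not reach 0.

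The alpha subunits had higher values in JAML-positive cells in 7 of 7 cases, with a median log2 fold change of 0.48 (0.37 without JAML-positive replicate A), and the groups did not overlap for 5 of them. Psma5 had the highest fold change of the alpha ring. It lay at 46.1 and 44.9 CPM in the JAML-negative pair and at 139 and 81.1 CPM in the JAML-positive pair. Both JAML-positive libraries were above both JAML-negative ones, and JAML-positive replicate A was well above B. The fold change was 2.40 (95% interval 1.36 to 4.23, log2 1.26, SE 0.38, edgeR unadjusted p = 0.00578, adjusted p = 0.609). The log2 value was 0.84 without JAML-positive replicate A. Psma5 has 2 near-identical pseudogenes (98.6% identity for the closest), so reads may have been shared or lost there.

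Psma2, another subunit of the alpha ring, lay at 165 and 115 CPM in JAML-negative cells and at 228 and 187 CPM in the JAML-positive pair (log2 fold change 0.56, SE 0.27). Its groups did not overlap. Psma7 differed little within JAML-positive cells, at 142 CPM in both libraries, and lay at 115 and 84.4 CPM in JAML-negative cells. The log2 fold change of Psma2 was 0.34 without JAML-negative replicate B, and that of Psma7 went from 0.50 to 0.30. Psma1 and Psma4 had log2 fold changes of 0.47 and 0.48 without overlap (0.17 for Psma1 without JAML-negative replicate A, 0.26 for Psma4 without JAML-positive replicate A). Psma6 had 0.31 with overlap, and -0.08 without JAML-positive replicate A. At the other end, Psma3 lay at 136 and 123 CPM in JAML-negative cells and at 177 and 124 CPM in JAML-positive cells (0.21, SE 0.28, or -0.06 without JAML-positive replicate A), and the groups overlapped. Per kilobase of transcript the mean levels of the alpha subunits, which are present in equal number in the finished ring, ran from 36.7 CPM (Psma5) to 117 CPM (Psma6) in JAML-negative cells. In JAML-positive cells they ran from 53.0 CPM (Psma3) to 155 CPM (Psma7).

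The beta subunits were higher in 9 of 10 cases, with a median log2 fold change of 0.59 (0.33 without JAML-positive replicate A), and the groups did not overlap for 8. The catalytic subunits of the standard core, Psmb5, Psmb6 and Psmb7, were higher in 3 of 3 cases without overlap and had a median of 1.12. Without JAML-positive replicate A their log2 fold changes were 0.50, 1.36 and 0.45. The immunoproteasome subunits Psmb8, Psmb9 and Psmb10 were also higher in 3 of 3 cases, with a median of 0.57 (0.29 without JAML-positive replicate A), and did not overlap for 2. The structural subunits Psmb1, Psmb2, Psmb3 and Psmb4 had a median of 0.44.

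Psmb6 carries the caspase-like activity of the standard core (chromosome 11, 70525324 to 70527858, GRCm38.p6). It lay at 52.1 and 42.9 CPM in the JAML-negative pair and at 99.5 and 122 CPM in the JAML-positive pair. The lowest JAML-positive value was above the highest JAML-negative one, and here JAML-positive replicate B, not A, was the highest library. The fold change was 2.34 (95% interval 1.40 to 3.90, log2 1.22, SE 0.34, edgeR unadjusted p = 0.0036, adjusted p = 0.609), the smallest p among the 49 genes. The log2 value was 1.36 without JAML-positive replicate A and 1.06 without B.

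Psmb5 carries the chymotrypsin-like activity (chromosome 14, 54614120 to 54617995). Its levels were 23.4 and 19 CPM in JAML-negative and 63.8 and 29.9 CPM in the JAML-positive pair. The groups did not overlap, but JAML-positive replicate A was 2.13-fold above B, and the log2 fold change of 1.12 (SE 0.55) was 0.50 without replicate A. A pseudogene near-copy (98.9% identity) makes its count uncertain. Psmb7, with the trypsin-like activity (chromosome 2, 38588046 to 38643952), lay at 63.0 and 78.6 CPM in JAML-negative cells and at 128 and 96.3 CPM in JAML-positive cells (0.66, SE 0.32, or 0.45 without JAML-positive replicate A). With trends in length and GC content removed, the value of Psmb7 was 0.07 by least squares and 0.26 by a robust fit. Again the groups did not overlap. Exons of Nek6 on the opposite strand cover 11.8% of the exonic bases of Psmb7, and whether the counting used strand is not given in the sources used here.

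Among the inducible subunits, Psmb8 was by far the most abundant (chromosome 17, 34198195 to 34201454). It lay at 258 and 290 CPM in JAML-negative cells and at 362 and 271 CPM in the JAML-positive pair. The groups overlapped, since JAML-positive replicate B lay between the JAML-negative libraries, and the log2 fold change was 0.21 (SE 0.23) or -0.01 without JAML-positive replicate A. Psmb9 (chromosome 17, 34182030 to 34187330) lay at 59.1 and 55.1 CPM in JAML-negative cells and at 109 and 80.0 CPM in JAML-positive cells (0.72, SE 0.34) without overlap. Opposite-strand exons of its neighbour Tap1 cover 5.79% of its exonic bases, and Tap1 itself had a log2 fold change of -0.37. Psmb10 (chromosome 8, 105935728 to 105938392) lay at 39.1 and 53.0 CPM in JAML-negative cells and at 81.7 and 56.1 CPM in JAML-positive cells (0.57, SE 0.40, or 0.29 without JAML-positive replicate A), and JAML-positive replicate B was only just above JAML-negative replicate B.

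Within each library, the inducible and the constitutive subunits can be compared without scaling between libraries. The summed level of Psmb8, Psmb9 and Psmb10 per kilobase was 1.59 and 1.82 times that of Psmb5, Psmb6 and Psmb7 in the JAML-negative pair, and 1.19 and 0.998 times in the JAML-positive pair. Both JAML-positive ratios were below both JAML-negative ratios, a log2 difference of -0.64 (exact permutation p = 0.3333, two-sided, the smallest that 2 against 2 libraries can give). The lowest summed ratio was that of JAML-positive replicate B, and the lowest ratio of Psmb8 to Psmb5 that of JAML-positive replicate A. The ratio of the pair Psmb8 and Psmb5, which hold the same position in the core, went from 6.10 and 8.45 to 3.13 and 5.004. That of Psmb9 to Psmb6 was 0.670 and 0.758 in the JAML-negative pair and 0.649 and 0.388 in the JAML-positive pair. The pair Psmb10 and Psmb7 hardly differed, at 0.550 and 0.597 against 0.565 and 0.515 (log2 difference -0.09, exact permutation p = 0.667). These 3 pairs and the summed ratio are 4 related comparisons, and none of them can pass a threshold of 0.05 in this design. The constitutive transcripts are shorter (798 to 1160 nucleotides) than the inducible ones (1311 to 1628), and with trends in length and GC content removed the mean log2 fold change of the inducible minus that of the constitutive subunits was -0.39, against -0.50 before.

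**Figure D2:**
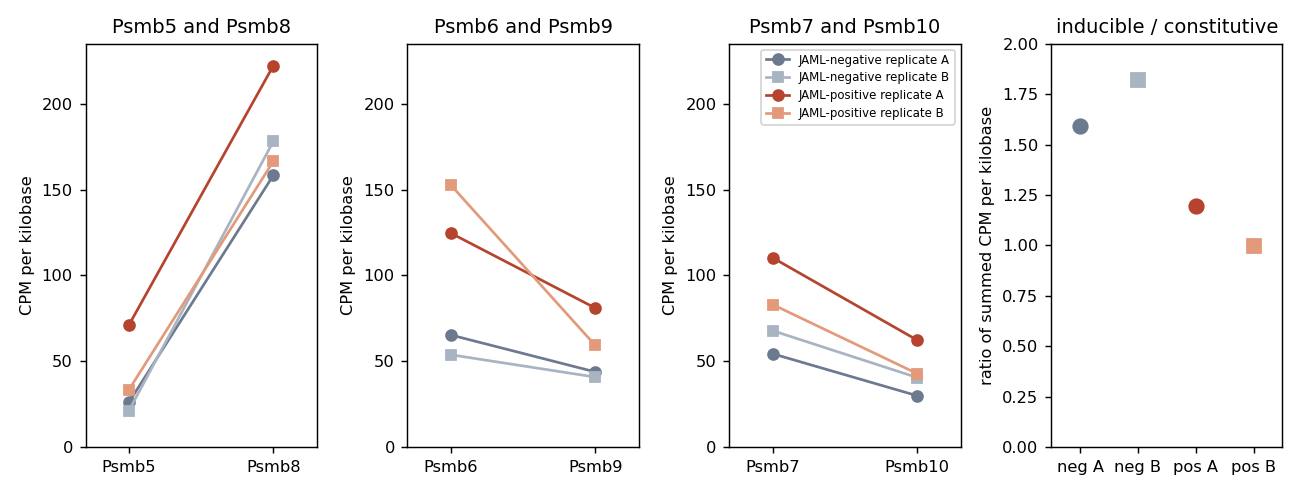
Level per kilobase of transcript (CPM per kilobase, linear axis from 0) of each constitutive catalytic subunit and its inducible counterpart in the 4 libraries, with lines joining values of 1 library, and at the right the ratio of the summed inducible to the summed constitutive levels. The ratio is 1.59 and 1.82 in the JAML-negative libraries and 1.19 and 0.998 in the JAML-positive ones.

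Of the structural beta subunits, only Psmb4 had a lower fitted value. It lay at 133 and 158 CPM in JAML-negative cells and at 159 and 113 CPM in the JAML-positive pair (log2 fold change -0.11, SE 0.28), and the groups overlapped. Without JAML-positive replicate A its value was -0.37, and without B it was 0.12. Psmb1, Psmb2 and Psmb3 had log2 fold changes of 0.41, 0.61 and 0.48, each without overlap, and of 0.15, 0.31 and 0.35 without JAML-positive replicate A. By mean level per kilobase Psmb4 held rank 3 of the 49 genes in JAML-negative cells, at 123 CPM, behind Psme1 at 288 CPM and Psmb8 at 168 CPM, and rank 12 in JAML-positive cells. Psme1 and Psmb8 held the same first places in JAML-positive cells, at 315 and 194 CPM per kilobase.

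Of the 21 genes grouped with the 19S particle 17 were higher, with a median log2 fold change of 0.33 (0.22 without JAML-positive replicate A). The 21 include Psmc3ip and the assembly chaperones Psmd5, Psmd9 and Psmd10, which are not subunits of the finished particle. Psmc3ip and Psmd5 were among the genes with lower values. The groups did not overlap for 7 of the 21, against 20.3% of all tested genes higher without overlap. The ATPases Psmc1 to Psmc6, which unfold substrates and push them into the core, were higher in 5 of 6 cases with a median of 0.32, and only Psmc3 did not overlap. Psmc1 lay at 82.3 and 163 CPM in JAML-negative cells and at 238 and 139 CPM in the JAML-positive pair (0.61, SE 0.35). The value was 0.19 without JAML-positive replicate A and 0.20 without JAML-negative replicate A, so it rests on those libraries. JAML-positive replicate B lay between the JAML-negative values, and a pseudogene near-copy (95.6% identity) adds to the uncertainty. Psma4, Psmb3 and Psmd2 have such near-copies as well. The others overlapped, with log2 fold changes of -0.02 (Psmc2), 0.25 (Psmc4), 0.34 (Psmc5) and 0.30 (Psmc6). Without JAML-negative replicate A these were 0.35, 0.56, -0.11 and -0.05. Psmc3 lay at 137 and 133 CPM in JAML-negative cells and at 182 and 160 CPM in JAML-positive cells (0.34, SE 0.25), with opposite-strand exons of Slc39a13 over 8.25% of its exonic bases.

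The non-ATPase genes (Psmd) were higher in 12 of 14 cases, with a median of 0.35. Of these genes 6 did not overlap, against 20.3% of all tested genes higher without overlap. Psmd3, a scaffold subunit of the lid, the part of the 19S particle that removes ubiquitin chains (chromosome 11, 98682554 to 98695978), lay at 42.1 and 55.8 CPM in JAML-negative cells and at 117 and 90.7 CPM in the JAML-positive pair. Its JAML-positive values were both above its JAML-negative ones, and the fold change was 2.12 (95% interval 1.25 to 3.60, log2 1.08, SE 0.35, edgeR unadjusted p = 0.00935, adjusted p = 0.609). Without JAML-positive replicate A the log2 value was 0.90. Psmd8, also of the lid (chromosome 7, 29174187 to 29180673), lay at 59.6 and 113 CPM in JAML-negative cells and at 184 and 146 CPM in JAML-positive cells (0.93, SE 0.33, edgeR unadjusted p = 0.0151). The groups did not overlap, although JAML-negative replicates A and B differed 1.89-fold, and the log2 value was 0.54 without JAML-negative replicate A.

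Other lid genes varied. Psmd12 lay at 28.3 and 76.6 CPM in JAML-negative cells and at 103 and 82.6 CPM in JAML-positive cells (log2 fold change 0.82, SE 0.43), and Psmd7 at 51.7 and 97.9 against 111 and 125 CPM (0.66, SE 0.35). JAML-negative replicate A was low for both, and without that library the log2 fold changes were 0.27 for each. Psmd14, the deubiquitinating enzyme of the lid, overlapped at 93.5 and 123 against 180 and 103 CPM (0.38, SE 0.33, or -0.06 without JAML-positive replicate A). So did Psmd11 (-0.24, SE 0.34), which shares a near-identical stretch with A730017L22Rik, Psmd6 (0.20, SE 0.44) and Psmd13 (0.19, SE 0.32), over whose exonic bases Sirt3 lies on the opposite strand for 10.1%. Without JAML-positive replicate A these 3 had values of -0.56, -0.63 and -0.26. In the base, the scaffold Psmd1 lay at 123 and 107 against 163 and 163 CPM without overlap (0.51, SE 0.26), and the other scaffold, Psmd2, at 232 and 150 against 260 and 222 CPM with overlap (0.33, SE 0.26, or 0.06 without JAML-negative replicate B). The ubiquitin receptor Psmd4 overlapped at 114 and 61.1 against 147 and 97.5 CPM (0.47, SE 0.36, or 0.16 without JAML-positive replicate A and 0.11 without JAML-negative replicate B).

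Psmd5, Psmd9 and Psmd10 are chaperones that assemble the base and are not part of the finished particle. Psmd5 had the lowest fold change of the 49 genes, at 50.5 and 18.1 CPM in the JAML-negative pair and 27.0 and 24.4 CPM in the JAML-positive pair (log2 fold change -0.43, SE 0.58). Its JAML-positive values lay between its JAML-negative ones, which differed 2.78-fold, and without JAML-negative replicate A the sign turned (0.50). Psmd9 had the same arrangement, with 32.1 and 11.4 CPM around 27.9 and 25.3 CPM (log2 fold change 0.28, or -0.27 without JAML-negative replicate B), and Psmd10 lay at 36.0 and 25.2 against 37.7 and 36.1 CPM. Psmc3ip, the recombination cofactor, was expressed at only 6.51 and 18.2 against 6.58 and 12.8 CPM (-0.31, SE 0.90, or 0.07 without JAML-positive replicate A), and opposite-strand exons of Mlx cover 21.2% of its exonic bases.

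**Figure D3:**
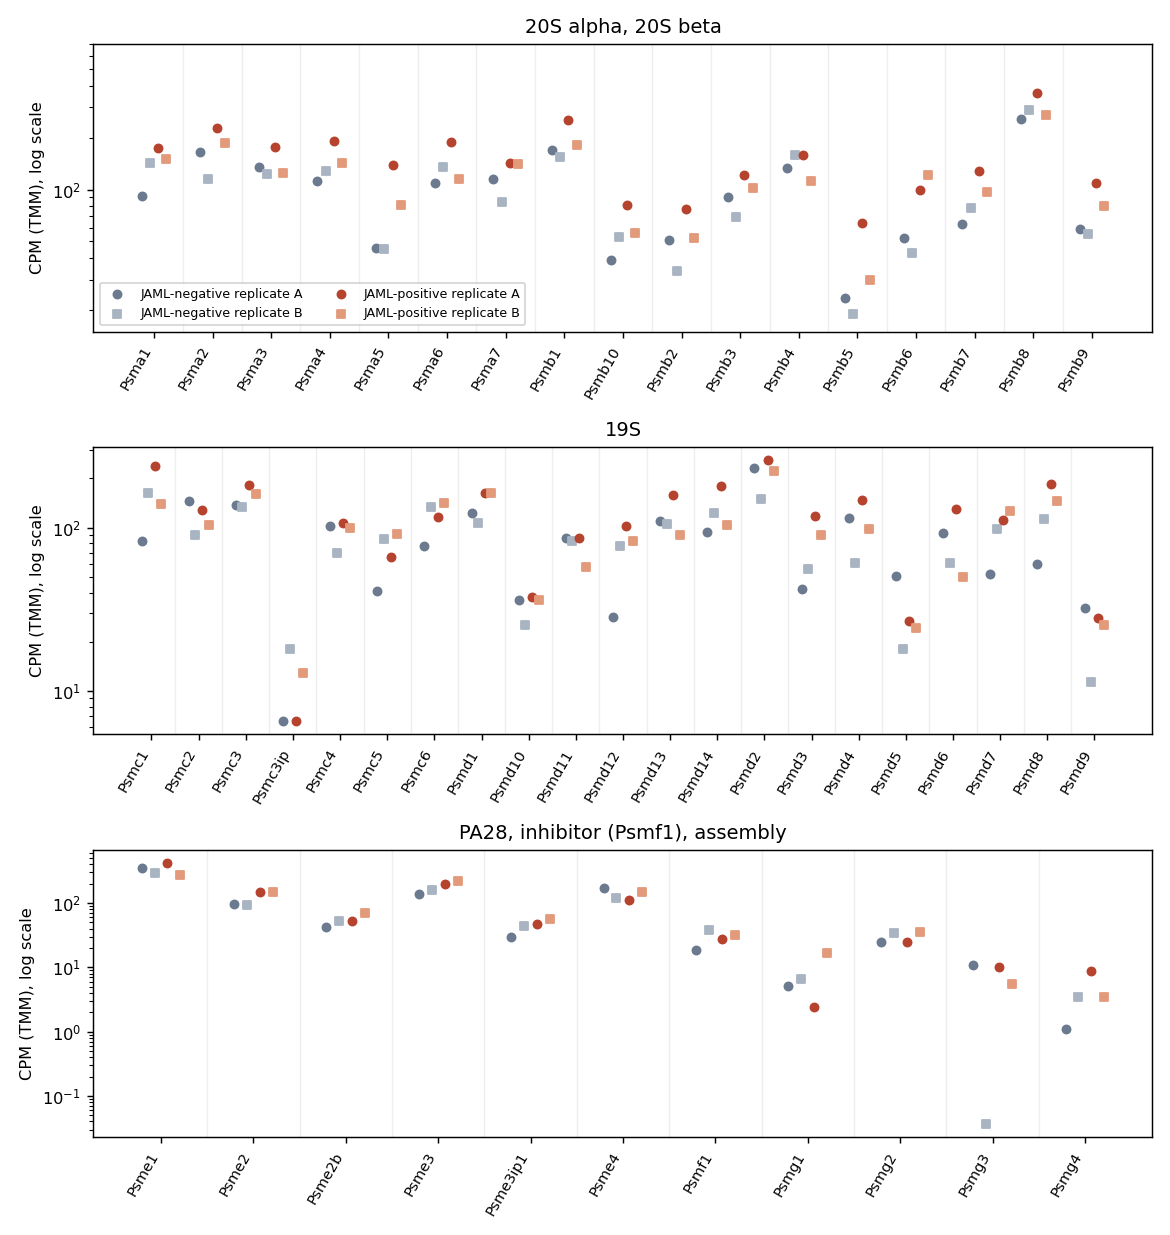
Level of each proteasome gene in the 4 libraries (TMM-scaled CPM, log axis), with 1 marker per library and no error bars. JAML-positive replicate A is the highest library for 32 of the 49 genes, JAML-positive replicate B for 10, and JAML-negative replicates A and B for 5 and 2.

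Of the 6 Psme genes, which include Psme3ip1 and the PA200 gene Psme4, 5 were higher, with a median of 0.42. The groups did not overlap for 3, Psme3ip1 among them, against 20.3% of all tested genes higher without overlap. Psme1 and Psme2 encode the alpha and beta subunits of the interferon-induced PA28 ring and lie close together on chromosome 14 (55578494 to 55581527 and 55587440 to 55591101). Psme2 lay at 95.1 and 92.0 CPM in JAML-negative cells and at 146 and 150 CPM in the JAML-positive pair. The replicates of each group were within a few percent of each other and the groups did not overlap, with a fold change of 1.58 (95% interval 1.048 to 2.39, log2 0.66, SE 0.27, edgeR unadjusted p = 0.032, adjusted p = 0.609). Its log2 value was 0.68 without JAML-positive replicate A, and 0.11 with trends in length and GC content removed by least squares or 0.30 by a robust fit. Psme1, the most abundant member per kilobase, overlapped at 349 and 291 against 424 and 278 CPM (0.13, SE 0.25), and its value was -0.20 without that library.

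The ratio of Psme1 to Psme2 per kilobase was 3.17 and 2.74 in the JAML-negative pair and 2.51 and 1.60 in the JAML-positive pair, so the partners of the ring did not keep 1 ratio between libraries (log2 difference -0.56, exact permutation p = 0.3333). Psme2b is 99.4% identical to Psme2 over most of its length, and how the counting divided reads between them is not given in the sources used here. Psme2b lay at 43.2 and 53.4 against 51.9 and 69.9 CPM with overlap (0.35, SE 0.39, or 0.54 without JAML-positive replicate A). Psme3, the nuclear PA28 gamma, lay at 138 and 158 CPM in JAML-negative cells and at 199 and 219 CPM in JAML-positive cells without overlap (0.50, SE 0.25). For this gene JAML-positive replicate B was above A. Psme4 had the longest transcript of the set, 6491 nucleotides, and overlapped at 173 and 118 against 113 and 149 CPM (-0.14, SE 0.29, or 0.04 without JAML-positive replicate A). Psme3ip1 lay at 29.6 and 43.7 against 47.8 and 57.4 CPM without overlap.

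Psmf1 encodes PI31, named for its inhibition of the core in the test tube. It lay at 18.6 and 38.5 CPM in JAML-negative cells and at 28.0 and 32.2 CPM in JAML-positive cells (log2 fold change 0.09, SE 0.55, or -0.35 without JAML-negative replicate A), and the JAML-positive values fell between the JAML-negative ones. The chaperones Psmg1 to Psmg4, which guide assembly of the alpha ring, were the least expressed group and were higher in 4 of 4 cases with a median of 0.61, but only Psmg4 did not overlap. Its counts were 31 and 95 in the JAML-negative pair and 236 and 108 in the JAML-positive pair (1.40, SE 1.36, or 0.61 without JAML-positive replicate A), with JAML-positive replicate B and JAML-negative replicate B at the same 3.45 CPM. Psmg2 lay at 25.1 and 34.1 against 24.8 and 35.7 CPM (0.05, SE 0.52), and its sign changed with the library left out. Psmg1 and Psmg3 varied more within a group than between the groups, Psmg1 from 63 to 520 counts in JAML-positive cells and Psmg3 from 312 to 1 count in JAML-negative cells. Both changed sign with a library left out.

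The replicates of a group often differed as much as the groups did. With 1 library left out, 20 of the 49 genes changed sign under at least 1 of the 4 choices. Without JAML-positive replicate A there were 10, of which 8 went from higher to lower, and without JAML-positive replicate B, JAML-negative replicate A and JAML-negative replicate B there were 6, 7 and 5. JAML-negative replicates A and B were over 1.5-fold apart for 18 of the 49 genes, and the JAML-positive replicates for 14. The median absolute log2 difference between the JAML-negative libraries was 0.30 for the alpha subunits, 0.29 for the beta subunits and 0.67 for the 19S genes, and between the JAML-positive libraries 0.43, 0.47 and 0.32. Against this, the median absolute difference between the group means was 0.50, 0.60 and 0.35. Over all tested genes the medians were 0.55 and 0.54 within the JAML-negative and JAML-positive pairs and 0.46 between the group means. For genes with at least 30 CPM they were 0.33, 0.36 and 0.30. A group mean averages 2 libraries, so differences between groups and within a pair are unlike measures. By these medians the 19S genes differed more between the JAML-negative replicates than between the groups. The alpha and beta subunits differed more between the groups than within either pair, as did the PA28 genes (0.41 against 0.28 and 0.33).

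Genes that work with the proteasome but do not carry a Psm symbol were read from the same fit. Among 13 further associated genes, 9 were higher and 4 lower (median 0.36), and 0 were called. Pomp, which matures the core, lay at 95.4 and 64.0 against 138 and 94.9 CPM with a slight overlap (log2 fold change 0.54, SE 0.34). Zfand2a, an arsenite-inducible proteasome partner, went the other way at 106 and 125 against 72.1 and 49.3 CPM without overlap (-0.94, SE 0.33, edgeR unadjusted p = 0.0149). For the 8 genes of the NRF1 route, 3 were higher and 5 lower (median -0.15) and 0 were called. Nfe2l1 itself lay at 79.6 and 71.2 against 54.7 and 83.1 CPM, the 2 smallest p belonging to the ubiquitin ligase Syvn1 (0.96, SE 0.57) and the protease Ddi2 (0.87, SE 0.64).

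Ubiquitin genes and E1 enzymes were higher in 5 of 6 cases (median 0.44, 0 called). Uba1, the main E1 enzyme, lay at 393 and 298 against 472 and 508 CPM without overlap (log2 fold change 0.50, SE 0.22), and Rps27a, a fusion of ubiquitin with a ribosomal protein, at 649 and 941 against 1692 and 829 CPM (0.66, SE 0.30). The high value of Rps27a was that of JAML-positive replicate A, the library rich in ribosomal protein transcripts. Genes that deliver substrates were higher in 10 of 13 cases with a median of 0.13 and 0 called. Bag6, a chaperone for misplaced proteins, lay at 136 and 83.0 against 167 and 139 CPM (0.48, SE 0.30) and Faf1, a partner of the unfoldase Vcp, at 45.3 and 38.3 against 82.5 and 49.8 CPM (0.65, SE 0.42), both without overlap.

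Of the 11 genes of the interferon gamma axis 6 were higher and 5 lower (median 0.01, 0 called), close to the 50.7% over all tested genes, and no test compared them with the proteasome genes. For 4 of the 11 both JAML-positive libraries were below both JAML-negative ones, against 18.2% of all tested genes, and 0 had the opposite order. Nlrc5, the transactivator of MHC class I and immunoproteasome genes, lay at 360 and 404 CPM in JAML-negative cells and at 207 and 287 CPM in JAML-positive cells (log2 fold change -0.62, SE 0.23, edgeR unadjusted p = 0.0205). Jak1, a kinase of the receptor, lay at 1544 and 1574 against 1147 and 1252 CPM (-0.38, SE 0.19), and both genes were without overlap. The receptor chain Ifngr1 was also among the 4, at 770 and 837 against 693 and 623 CPM (-0.29, SE 0.20). Stat2 was the last of them, at 46.0 and 38.2 against 36.65 and 11.3 CPM (-0.86, SE 0.57). Irf1, an interferon-induced transcription factor, overlapped at 326 and 452 against 379 and 289 CPM. Among the genes with higher fitted values, Ifngr2, the other chain of the receptor (0.35, SE 0.48), Irf9 (0.30, SE 0.39) and Ifng itself (0.16, SE 0.34) overlapped as well. Ifngr2 lay at 26.6 and 49.6 against 61.9 and 36.3 CPM.

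MHC class I loading genes were split, with 5 of 9 higher and a median of 0.01, and 0 were called. Pdia3, an oxidoreductase of the loading complex that also folds glycoproteins, lay at 423 and 423 against 632 and 731 CPM (log2 fold change 0.69, SE 0.20, edgeR unadjusted p = 0.00525). Calr, its chaperone partner, lay at 593 and 548 against 721 and 754 CPM (0.37, SE 0.20), and both were without overlap. In all, 3 of the 9 were higher without overlap, against 20.3% of all tested genes, the other being Canx (0.29, SE 0.21). Another 2 were lower without overlap, against 18.2%. These were Tap1, only just so at 353.24 and 281.4 against 209.69 and 280.65 CPM (-0.37, SE 0.24), and Tap2 at 248 and 197 against 186.35 and 186.38 CPM (-0.26, SE 0.24). Of 6 cytosolic peptidases that trim proteasome products 4 were higher and 2 lower (median 0.11, 0 called). Lap3, which interferon gamma induces, had 3 and 624 counts in the JAML-negative pair and 1565 and 1113 in the JAML-positive pair, and Nln had 1422 and 1105 against 399 and 612 (-1.37, SE 0.52).

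Fold changes moved with transcript length, mostly through JAML-positive replicate A, and proteasome transcripts are short. Their median length was 1430 nucleotides against 2933 over all tested genes. Among the other genes the median log2 fold change was 0.31 below 1000 nucleotides, 0.15 from 1000 to 2000, 0.06 from 2000 to 3000, -0.04 from 3000 to 5000 and -0.16 from 5000. In the same classes the proteasome genes had medians of 0.61 (9 genes), 0.38 (27), 0.33 (9), 0.09 (3) and -0.14 (1). The proteasome medians were above those of the other genes in each of the 5 classes, the last of which holds Psme4 alone. By library, other genes below 1000 nucleotides with at least 30 CPM had a median log2 level relative to the mean of the libraries of -0.13 and -0.13 in the JAML-negative pair, 0.53 in JAML-positive replicate A and -0.19 in JAML-positive replicate B. The last of these was at or below the JAML-negative pair, so for short genes the difference between the groups came from JAML-positive replicate A. Relative levels of the proteasome genes, with no such limit on CPM, had medians of -0.25, -0.17, 0.35 and 0.12, with JAML-positive replicate B above the JAML-negative pair.

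With trends in length and GC content removed by least squares, the median of the proteasome genes was -0.04, while the median of all genes moved to -0.21. Of the 49 genes 21 had a value above 0, against 35.85% of all tested genes. With a robust fit of the same trends, added after the data were seen, the medians were 0.13 and -0.08. In that fit 36 of 49 were above 0, against 44.9% of all tested genes. The proteasome median was above that of all genes by 0.17 in the first and 0.20 in the second fit, against 0.43 without the correction. Psmb6 (0.72 by least squares, 0.90 by the robust fit), Psma5 (0.68 and 0.87), Psmd3 (0.87 and 1.01) and Psmb5 (0.60 and 0.78) kept values above 0.5 in both, and Psmd8 had 0.48 and 0.68. Psme2 had 0.11 and 0.30, against 0.66 before. Of the 43 genes with higher values 22 turned to below 0 by least squares, among them Psmb8 (-0.18) and 5 of the 7 alpha subunits. By the robust fit 7 did so, among them Psme1 (-0.39 and -0.19). These signs are read against 0, while the all-gene median lay at -0.21 and -0.08 in the 2 fits. Of the 49 genes 37 and 38 lay above that median, against 43 in the reported fit. How far length accounts for the higher values was not tested beyond these fits.

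**Figure D4:**
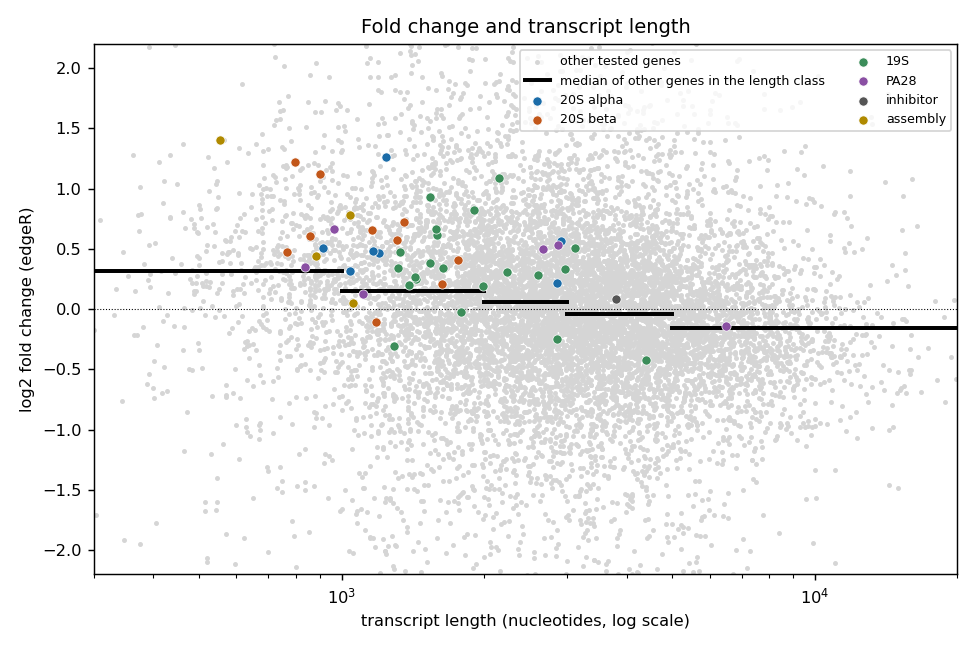
Log2 fold change (vertical axis, JAML-positive minus JAML-negative, edgeR) against transcript length (nucleotides, log axis) for the proteasome genes, coloured by group, and the other tested genes in grey, with black bars for the median of the other genes in each length class. The black bars step down from 0.31 for the shortest to -0.16 for the longest transcripts, and most proteasome genes lie above them. Points outside the frame are not drawn.

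Other quantities moved with the groups as well. Ribosomal proteins, also short transcripts, were higher in 81 of 83 cases (median 0.29), but their summed level was 85012 and 85306 CPM in JAML-negative and 131515 and 75496 CPM in the JAML-positive pair, so their order of libraries differed from that of the proteasome genes. Cell cycle genes were higher in 16 of 17 cases (median 0.69), among them Birc5 at 55.1 and 59.7 against 143 and 118 CPM and Cdk1 at 52.0 and 51.1 against 113 and 96.7 CPM.

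Summed markers of dendritic cells, B and plasma cells and macrophages were also higher in JAML-positive libraries, but not every marker was. Dendritic cell and MHC class II markers (6 of 7 tested higher) summed to 172 to 189 CPM in JAML-negative and 271 to 437 CPM in JAML-positive libraries. Itgax, which T cells can also express, made up most of the JAML-negative sums and went the other way (124 and 116 against 75.1 and 61.4 CPM), while H2-Ab1 lay at 6.62 and 5.96 against 55.0 and 38.4 CPM and Cd74 at 27.7 and 25.1 against 145 and 72.7 CPM. Clec9a and Zbtb46 had 1 and 0 counts in the JAML-negative pair and 1 count in JAML-positive replicate A, but 133 and 113 counts in JAML-positive replicate B. Markers of plasmacytoid dendritic cells (5 of 5) summed to 99.6 to 112 and 253 to 270 CPM, B and plasma cell markers (4 of 4) to 10.4 to 18.1 and 84.9 to 126 CPM, and macrophage markers (4 of 6) to 57.1 to 58.3 and 132 to 181 CPM, of which Mpeg1 took most in the JAML-positive pair. A count of 0 allows up to 3 counts, or 0.0981 to 0.109 CPM at these depths, by counting error alone. The hepatocyte marker Alb lay at 4.18 to 19.1 CPM, with the highest value in JAML-negative replicate A. Apoa1 had 134 counts in that library and 0 in every other. Ttr had 1 count in JAML-negative replicate B and 0 elsewhere. For comparison, the proteasome genes summed to 4345 and 4347 CPM in JAML-negative and to 6332 and 5123 CPM in the JAML-positive pair. The part of the length trend, cell cycle and other cell types in the proteasome values was not tested.

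**Figure D5:**
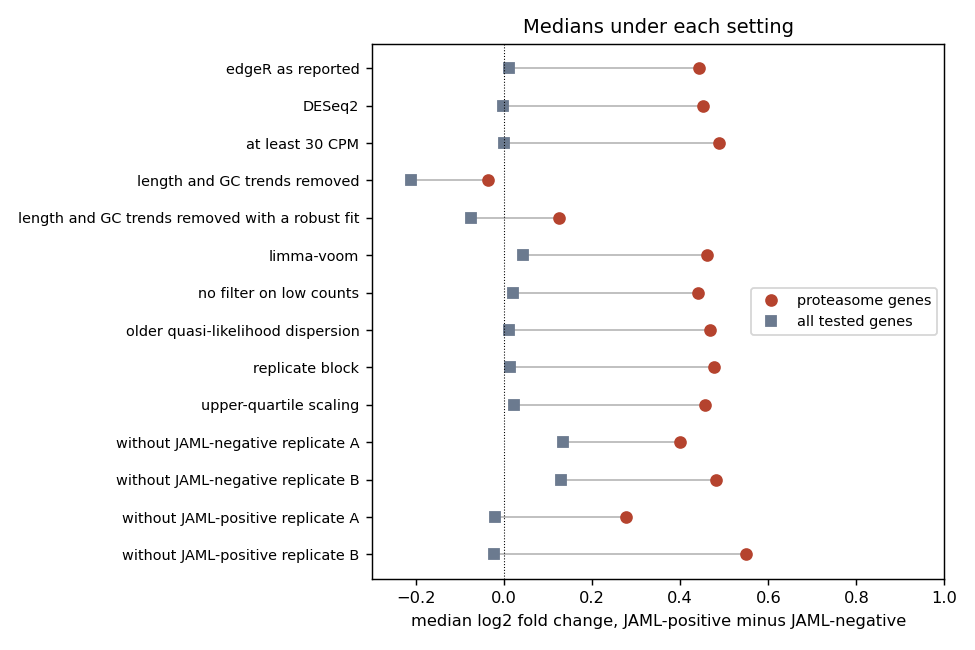
Median log2 fold change (horizontal axis, JAML-positive minus JAML-negative) of the proteasome genes (circles) and of all genes (squares) that were tested under the reported fit and each alternative setting. The circles lie right of the squares in every setting shown, at 0.44 and 0.01 in the reported fit and closest when length and GC trends were removed by least squares (-0.04 and -0.21).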

How the data were processed

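Read counts per gene were analysed as the authors deposited them, in 1 table of whole numbers for all 4 libraries, with no normalization recorded. The build was GRCm38, per the submitters' processing notes. For the aligner, the counting program and its use of strand, no statement is given in the sources used here. A SMARTER mRNA kit was used on total RNA, per the labels' protocols.

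Groups were taken from the sample descriptions. Low genes were removed by filterByExpr (minimum count 10), libraries were scaled with TMM and genes were tested with edgeR 4.0.16 (quasi-likelihood, no covariate) in R 4.3.3, with Benjamini-Hochberg adjustment over all tested genes and a threshold of 0.05. SE is the standard error that follows from the log2 fold change and its F statistic, and 95% intervals use it. Groups do not overlap where both libraries of one lie above both of the other. DESeq2 1.42.0 and limma-voom (limma 3.58.1) were alternatives. The procedure was tested on simulated data with a fixed dispersion that was not estimated from these libraries. That test does not show how the procedure performs at their spread. Lengths are those of a principal GENCODE M21 transcript, positions and promoters those of RefSeq (GRCm38.p6), and near-copies are transcripts with at least 95% identity over at least 50% of a gene's transcript.

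The members, the gene lists and the tests were chosen with earlier results of these data known. Genes named were the 6 catalytic subunits, the member with the highest and the lowest fold change in each group, the 10 members with the smallest p, Psme1, Psme2 and Psmf1, and the 2 genes with the smallest p in each further list. Members named beyond these, and other genes of the lists and marker sets, were chosen after their values were seen.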

Additional observations from a re-analysis of the deposited data

How the results depend on the processing

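Over all genes DESeq2 called 885 genes, edgeR with at least 30 CPM 2, edgeR with no filter 2, and edgeR with 1 library left out 0 to 11, against 0 as reported. Among the members DESeq2 called 4, while 0 were called under every other setting, limma-voom and upper-quartile scaling included. At an unadjusted p under 0.05 there were 14 members by DESeq2, 8 by limma-voom, 2 with length and GC trends removed and 1 to 12 with 1 library left out. With those trends removed 21 members were higher, against 35.85% of all tested genes. The medians were -0.037 for all members, -0.074 for alpha, 0.028 for beta, 0.136 for immunoproteasome, -0.042 for 19S, -0.051 for PA28 and 0.086 for assembly genes. The robust version, added after the data were seen, gave 0.13, 0.11, 0.21, 0.33, 0.13, 0.11 and 0.27. With 1 library left out the medians ranged from 0.28 to 0.55 for all members, 0.37 to 0.64 for alpha, 0.33 to 0.84 for beta, 0.29 to 0.82 for immunoproteasome, 0.22 to 0.43 for 19S, 0.26 to 0.56 for PA28 and 0.28 to 0.70 for assembly genes. With the trends removed 22 members changed sign (7 with the robust fit), among them Psma3 (-0.018), Psmb8 (-0.18), Psme1 (-0.39, robust -0.19), Psmf1 (-0.094) and Psmg2 (-0.52, robust -0.33). These signs are read against 0. The all-gene median lay at -0.21 (robust -0.08), and 37 members (robust 38) were above it. With 1 library left out 20 members changed sign, and for those of them named by the rule the values ranged from -0.058 to 0.45 for Psma3, -0.37 to 0.12 for Psmb4, -0.011 to 0.40 for Psmb8, -0.90 to 0.61 for Psmc3ip, -0.97 to 0.50 for Psmd5, -0.20 to 0.40 for Psme1, -0.39 to 0.15 for Psme4, -0.35 to 0.70 for Psmf1 and -0.26 to 0.29 for Psmg2. The cause of these changes was not tested. The replicate letters A and B are shared by the groups. The deviations of the A libraries from their group means had a correlation of 0.02 over genes. This value rests on 1 pair of libraries in each group, so it cannot show whether libraries with the same letter share an animal or sort. With a replicate block 0 genes and 0 members were called and the median of the members was 0.48. The older quasi-likelihood dispersion of edgeR, also added after the data were seen, gave a median of 0.47. With 2 libraries a group the median SE of a member was 0.34 on the log2 scale, so that most differences of the size seen here were not detectable one gene at a time.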
